A study of Bos taurus with 10 samples.

Results

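Antigen presentation genes of class I and class II were examined in the corpus luteum of cows (Bos taurus), the progesterone-secreting gland that forms in the ovary after ovulation. The glands were taken at day 7 of the cycle from cows given selenium, and the groups, labelled MIX and ISe, differed in the form of selenium given. Each group held 5 samples, whose total RNA was hybridised to 1 whole-transcript array per sample. Both groups received selenium, so neither was untreated, and the labels give no breed, age, dose or batch.

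The 10 genes named for this description were B2M, BOLA, TAP1, TAP2, TAPBP, PSMB8, PSMB9, CD74, CIITA and BOLA-DMB, among 18010 genes that had a probeset annotated to them alone. Of these, 9 genes were measured, through 11 probesets of the 19145 tested. TAP2 shares its probesets with another symbol and is not described. Where a gene had several probesets, the brightest over the 10 arrays stood for it. For B2M the probeset kept averaged 11.02 log2 signal and the other 10.76, and for BOLA the averages were 8.10 and 6.76. Probesets were thus chosen by their mean level over all arrays, not by the difference between the groups, and the genes were chosen with earlier results of these data known.

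Class I molecules display short peptides from the inside of the cell on nearly every cell type. The peptides are cut by the proteasome, carried into the endoplasmic reticulum by the TAP transporter and loaded on a class I heavy chain, which pairs with beta-2 microglobulin. Class II molecules display peptides from engulfed material and are found mainly on macrophages, dendritic cells and B cells, where the invariant chain CD74 guards the groove until the DM molecule exchanges it for a peptide. The class I heavy chains and the class II chains belong to the major histocompatibility complex, whose genes are highly polymorphic in cattle as in other mammals. The corpus luteum holds steroid-producing cells and endothelial cells together with macrophages and other immune cells. In whole tissue, fewer cells of a type and less RNA per cell cannot be told apart.

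The values are deposited log2 signals, with array medians of 5.99 to 6.04 and correlations between arrays of 0.980 to 0.990. No probeset of the 19145 passed an adjusted p under 0.05 between MIX and ISe (limma, Benjamini-Hochberg adjustment, smallest adjusted p = 0.809, percent called 0). At an unadjusted p under 0.05, limma called 512 probesets higher in MIX (2.67%) and 406 lower (2.12%). Nothing in the labels ties the samples to separate cows. Every p-value rests on spread between samples, and whether that is spread between cows is not stated. Markers of steroidogenic luteal cells averaged 11.39 to 11.57 log2 signal over 9 genes on the MIX arrays and 11.45 to 11.64 on the ISe arrays, far above the array medians, as the tissue label implies.

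None of the 9 genes passed the adjusted threshold. TAP1, B2M and BOLA-DMB had higher means in MIX with an unadjusted p under 0.05, which is 3 of 9 genes against 2.67% of all probesets. In all, 7 of the 9 had a higher mean in MIX, against 50.4% of all probesets. The median difference over the 9 was 0.22 log2, against 0.001 over all probesets. These counts are a description, given the way the genes were chosen.

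**Figure D1:**
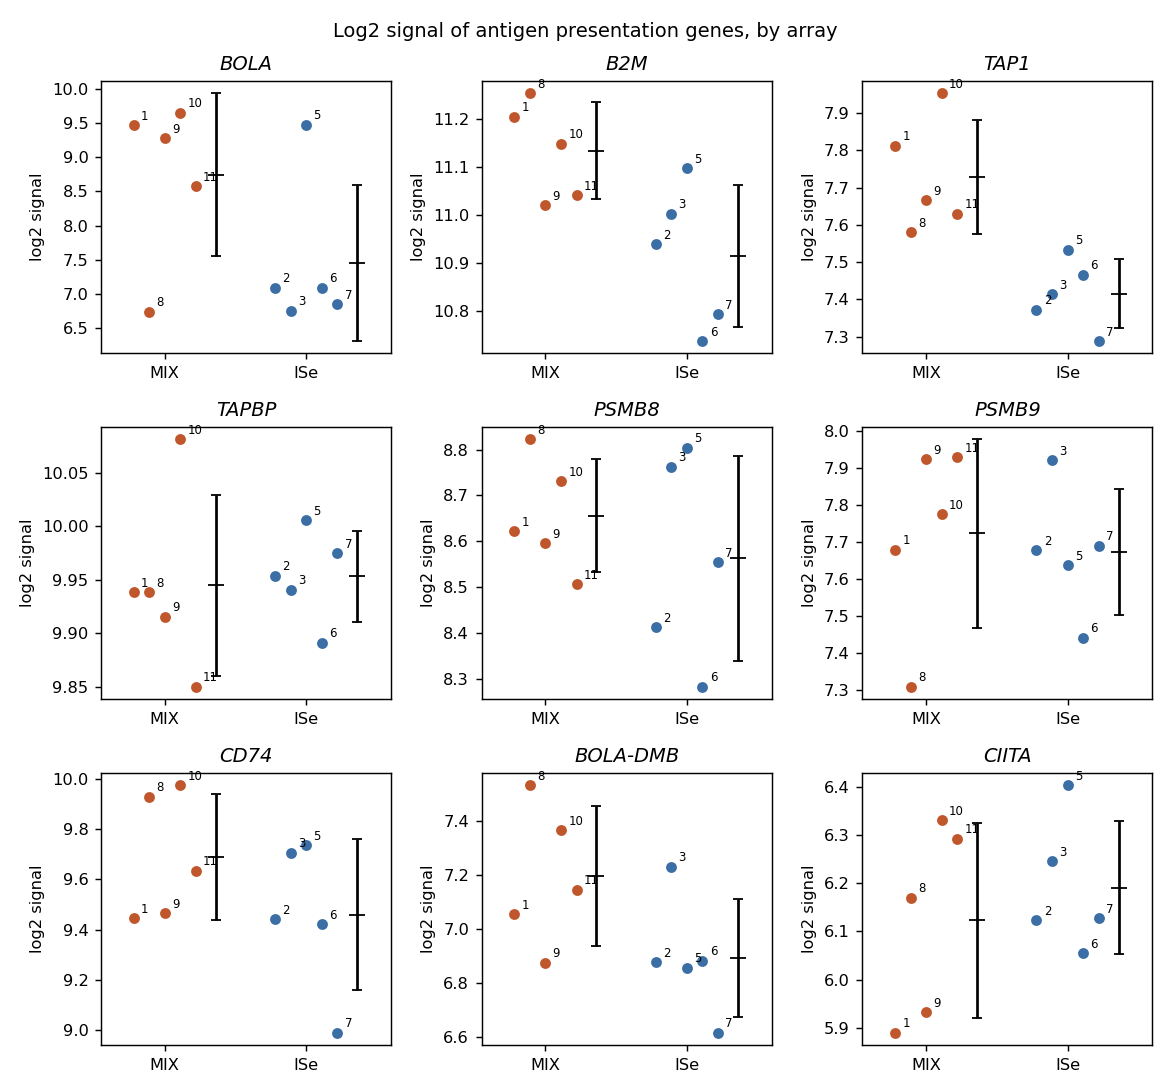
Log2 signal of the 9 genes on each array (points, with the replicate number beside each), MIX left and ISe right, with the group mean and SD (bars, n = 5 each). The vertical axes differ between panels and do not start at 0. TAP1 is the gene whose groups do not overlap, and BOLA falls into a high and a low set of arrays that cuts across the groups.

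TAP1, which forms with TAP2 the transporter that carries peptides to class I molecules, averaged 7.73 ± 0.15 log2 signal on the MIX arrays and 7.42 ± 0.09 on the ISe arrays (SD, n = 5 each). The MIX arrays read 7.81 (MIX 1), 7.58 (MIX 8), 7.67 (MIX 9), 7.95 (MIX 10) and 7.63 (MIX 11), and the ISe arrays 7.37 (ISe 2), 7.41 (ISe 3), 7.53 (ISe 5), 7.47 (ISe 6) and 7.29 (ISe 7). All 5 MIX arrays lay above the highest ISe array, which 0.366% of all probesets also showed. The difference was 0.31 ± 0.08 log2 (± SE of the limma fit), a 1.24-fold higher signal with a 95% interval of 1.10 to 1.41 (limma unadjusted p = 0.00265, adjusted p = 0.941). With any single array left out the difference ran from 0.26 to 0.35 log2.

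B2M, beta-2 microglobulin, the light chain shared by all class I molecules, averaged 11.13 ± 0.10 on the MIX arrays and 10.91 ± 0.15 on the ISe arrays (SD, n = 5 each). Its MIX arrays read 11.21, 11.25, 11.02, 11.15 and 11.04 for MIX 1, 8, 9, 10 and 11, and its ISe arrays 10.94, 11.00, 11.10, 10.74 and 10.79 for ISe 2, 3, 5, 6 and 7. The groups overlapped: 3 MIX arrays lay above every ISe array, while ISe 5 lay above MIX 9 and MIX 11. The difference was 0.22 ± 0.08 log2, or 1.16-fold (95% interval 1.03 to 1.32, limma unadjusted p = 0.0207, adjusted p = 0.941). The dimmer B2M probeset gave 0.16 ± 0.08 log2 and did not reach that unadjusted threshold (limma unadjusted p = 0.0699). Over the 10 arrays the B2M probesets ran together (Pearson r = 0.838, permutation p = 0.00233, Spearman rho = 0.915, permutation p = 5.3e-04, and r = 0.933 without the 2 arrays farthest from the median).

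TAPBP, or tapasin, which bridges the transporter and the class I heavy chain, varied least among the 9 genes. It ranged from 9.85 (MIX 11) to 10.08 (MIX 10) in MIX and from 9.89 (ISe 6) to 10.01 (ISe 5) in ISe, with a difference of -0.01 ± 0.06 log2 and a 95% interval of the fold from 0.912 to 1.08. Its SD within groups was larger than that of only 7.02% of all probesets, and the sign of so small a difference turned after quantile normalisation (0.005 log2).

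PSMB8 and PSMB9 encode catalytic subunits of the immunoproteasome, the form of the proteasome that replaces the usual one under interferon. PSMB8 averaged 8.66 ± 0.12 on the MIX arrays and 8.56 ± 0.22 in ISe, and PSMB9 7.72 ± 0.25 in MIX and 7.67 ± 0.17 on the ISe arrays (SD, n = 5 each). PSMB8 read 8.51 (MIX 11) to 8.82 (MIX 8) in MIX, and 8.28 (ISe 6) to 8.80 (ISe 5) in ISe. PSMB9 was lowest on MIX 8 at 7.31, the array where PSMB8 was highest, and read 7.68 to 7.93 on the other 4 MIX arrays, against 7.44 (ISe 6) to 7.92 (ISe 3) in ISe. The groups overlapped for both genes, with fold changes of 1.07 (0.906 to 1.26) for PSMB8 and 1.04 (0.855 to 1.25) for PSMB9, where the brackets hold 95% intervals. The PSMB8 difference of 0.09 log2 was 0.02 without ISe 6, 0.05 without ISe 2 or MIX 8, 0.14 without ISe 3 and 0.15 without ISe 5. Without MIX 1 and MIX 8 the PSMB9 difference was 0.20 in place of 0.05 log2 (adjusted p = 0.944), and its sign turned without ISe 6, MIX 9 or MIX 11, at -0.008 to -0.0003 log2.

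BOLA, the symbol that the annotation gives to a class I heavy chain gene of the bovine major histocompatibility complex, split the arrays into sets of 5 and 5 that did not coincide with the groups. It read 9.48 (MIX 1), 9.28 (MIX 9), 9.65 (MIX 10) and 8.57 (MIX 11) in MIX with MIX 8 at 6.73, and in ISe it read 7.09 (ISe 2), 6.75 (ISe 3), 7.09 (ISe 6) and 6.84 (ISe 7) with ISe 5 at 9.48. The gap of 1.49 log2 between ISe 2 or ISe 6 and MIX 11, a 2.80-fold step, took up 51.0% of the whole range. The high set held 4 MIX arrays and 1 ISe array, and the low set 1 MIX array and 4 ISe arrays. The group means were 8.74 ± 1.20 in MIX and 7.45 ± 1.14 on the ISe arrays (SD, n = 5 each), and the difference of 1.29 ± 0.63 log2 was only slightly larger than these SDs and did not pass the test (2.45-fold, 95% interval 0.931 to 6.46, limma unadjusted p = 0.0662, adjusted p = 0.941). A gap of at least 1 log2 between neighbouring arrays, a size chosen after the values were seen, occurred in 0.413% of all probesets.

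The other probeset annotated to BOLA alone, whose gene identifier is not in the cattle gene table of assembly ARS-UCD2.0, separated the arrays differently. It read 9.88 on MIX 8 and 4.97 (MIX 1), 6.77 (MIX 9), 6.83 (MIX 10) and 6.38 (MIX 11) on the remaining MIX arrays. In ISe it read 7.21 (ISe 2), 6.57 (ISe 3), 5.27 (ISe 5), 6.84 (ISe 6) and 6.89 (ISe 7). MIX 8, lowest of all arrays for the brighter probeset, thus stood 2.67 log2 above every other array for this one, a 6.35-fold step, and MIX 1 and ISe 5, in the high set for the brighter probeset, were the lowest here. Its difference between groups was 0.41 ± 0.75 log2 (limma adjusted p = 0.972). The annotation gives the BOLA probesets different gene identifiers, so they need not read the same gene, and each is described separately.

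Wide steps were also seen in class II genes of the DQ pair, whose products form a peptide-binding dimer. These were picked out after their values were seen. Of 17 probesets annotated to a single gene with a BOLA name, 6 had a range of at least 2 log2 over the 10 arrays, against 0.773% of all probesets, and 4 had a gap of at least 1 log2. The brighter BOLA-DQA1 probeset, for an alpha chain, read 5.34 on ISe 6, 6.29 on MIX 11 and 6.35 on MIX 1, and 7.53 to 8.59 on the other 7 arrays. BOLA-DQB1, for a beta chain, was lowest on the same arrays and MIX 8, at 6.87 (ISe 6), 6.92 (MIX 11), 7.68 (MIX 1) and 7.91 (MIX 8), and read 8.89 to 10.50 on the other 6. The dimmer BOLA-DQA1 probeset was high on MIX 11 alone, at 6.23 against 1.92 to 3.52 elsewhere. BOLA-DQB was high on MIX 10 at 6.59 and ISe 3 at 5.96, and read 4.28 to 5.00 on the other 8 arrays. BOLA-DQA5 had its top values on those arrays too, at 4.50 (MIX 10) and 4.77 (ISe 3). None of these sets of arrays followed the groups. Whether the probes of BOLA and the DQ genes match the alleles of every animal equally is not known and was not tested, so the steps and folds given for them are steps in signal, and no difference in transcript level is read from them.

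**Figure D2:**
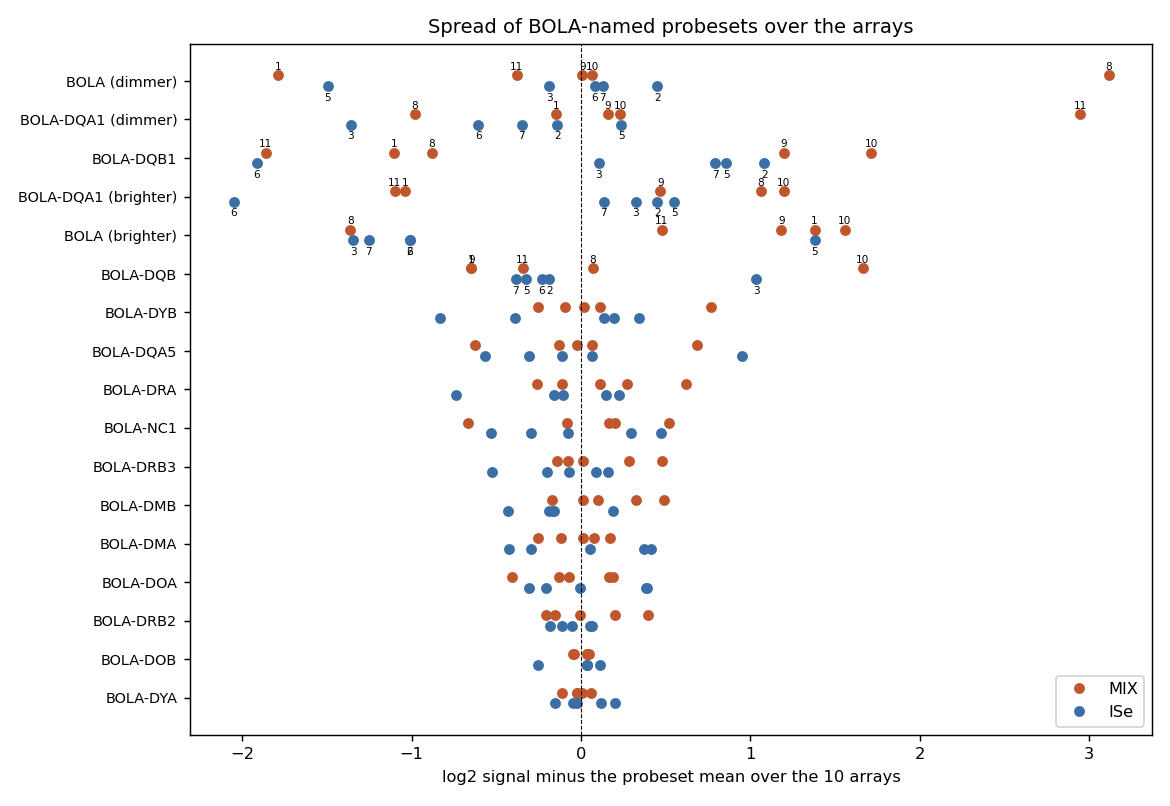
Log2 signal minus the probeset's mean over the 10 arrays for the 17 BOLA-named probesets, ordered by their range, with MIX above ISe in each row and replicate numbers beside the 6 probesets with a range of at least 2 log2. The 6 widest are both BOLA probesets, both BOLA-DQA1 probesets, BOLA-DQB1 and BOLA-DQB, and their high arrays belong to both groups or to a single MIX array.

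Of the class II genes, CD74, the invariant chain, averaged 9.69 ± 0.25 log2 signal on the MIX arrays and 9.46 ± 0.30 on the ISe arrays (SD, n = 5 each). Its MIX arrays read 9.45, 9.93, 9.46, 9.97 and 9.63 for MIX 1, 8, 9, 10 and 11, and its ISe arrays 9.44, 9.71, 9.74, 9.42 and 8.99 for ISe 2, 3, 5, 6 and 7. MIX 8 and MIX 10 were the highest and ISe 7 the lowest, and the groups overlapped on the other arrays. The difference was 0.23 ± 0.16 log2 (1.17-fold, 95% interval 0.925 to 1.49, limma adjusted p = 0.941). It was 0.11 log2 without ISe 7, the array farthest from the others.

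BOLA-DMB, the beta chain of the DM molecule that loads class II, averaged 7.20 ± 0.26 on the MIX arrays and 6.89 ± 0.22 on the ISe arrays (SD, n = 5 each). The MIX arrays read 7.06 (MIX 1), 7.54 (MIX 8), 6.88 (MIX 9), 7.37 (MIX 10) and 7.15 (MIX 11), and the ISe arrays 6.88 (ISe 2), 7.23 (ISe 3), 6.86 (ISe 5), 6.88 (ISe 6) and 6.62 (ISe 7). MIX 8 and MIX 10 were again highest and ISe 7 lowest, and ISe 3 exceeded 3 of the MIX arrays. The difference was 0.30 ± 0.14 log2, or 1.23-fold (limma unadjusted p = 0.0495, adjusted p = 0.941), and ran from 0.22 to 0.39 log2 with single arrays left out. BOLA-DMA, which encodes the alpha chain of the same molecule, differed by -0.05 ± 0.16 log2.

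CIITA, the co-activator that switches on class II genes, read 5.89 (MIX 1) to 6.33 (MIX 10) in MIX and 6.05 (ISe 6) to 6.40 (ISe 5) in ISe. Its mean was 6.12 ± 0.20 in MIX and 6.19 ± 0.14 on the ISe arrays (SD, n = 5 each), a difference of -0.07 ± 0.10 log2 with a 95% interval of the fold from 0.815 to 1.12. The difference was -0.01 without MIX 1 or ISe 5, -0.02 without MIX 9, -0.12 without MIX 10, -0.11 without MIX 11 and -0.10 without ISe 6. These levels lie near the array medians.

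The wider class I list held 21 measured genes, of which 15 had a higher and 6 a lower mean in MIX. The median difference was 0.05 log2, with 3 genes higher and 0 lower at an unadjusted p under 0.05, and 0 called after adjustment. After TAP1 and B2M the smallest p-values were those of ERAP1, an aminopeptidase that trims peptides in the endoplasmic reticulum, at 0.27 ± 0.11 log2, and BOLA. Among the 15 genes of the list other than those described above, the median was 0.03 log2 with 10 higher and 5 lower. NLRC5, the co-activator of class I genes, was at 0.17 ± 0.09, ERAP2 at 0.31 ± 0.24 and PSMB10, the remaining immunoproteasome subunit, at 0.12 ± 0.09 log2. The chaperones and folding enzymes CALR, CANX, PDIA3 and HSPA5 lay between -0.08 and 0.03 log2, and PSME1 and PSME2, the interferon-induced proteasome activator, at -0.03 and 5e-05 log2.

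The wider class II list held 24 measured genes, with 14 higher and 10 lower in MIX and a median of 0.03 log2. At an unadjusted p under 0.05, 2 genes were higher and 0 lower, and 0 were called after adjustment. The list does not hold every class II gene measured. Outside it were BOLA-DQB1, at -0.37 ± 0.76 log2, and BOLA-DRB2, at 0.09 ± 0.11 log2. CTSS, cathepsin S, the protease that removes the invariant chain, had the smallest p with 9.33 ± 0.12 in MIX and 9.04 ± 0.23 on the ISe arrays (SD, n = 5 each), a difference of 0.29 ± 0.11 log2 (limma unadjusted p = 0.0218). BOLA-DRB3 and BOLA-DRA, the chains of the DR molecule, were at 0.22 ± 0.15 and 0.25 ± 0.20 log2, both with MIX 10 highest (10.25 and 11.38) and ISe 7 lowest (9.25 and 10.02). The factors that bind class II promoters, RFX5, RFXAP, NFYA, NFYB and NFYC, lay between -0.08 and 0.08 log2. IFI30, a lysosomal thiol reductase, was at -0.25 ± 0.21 log2.

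**Figure D3:**
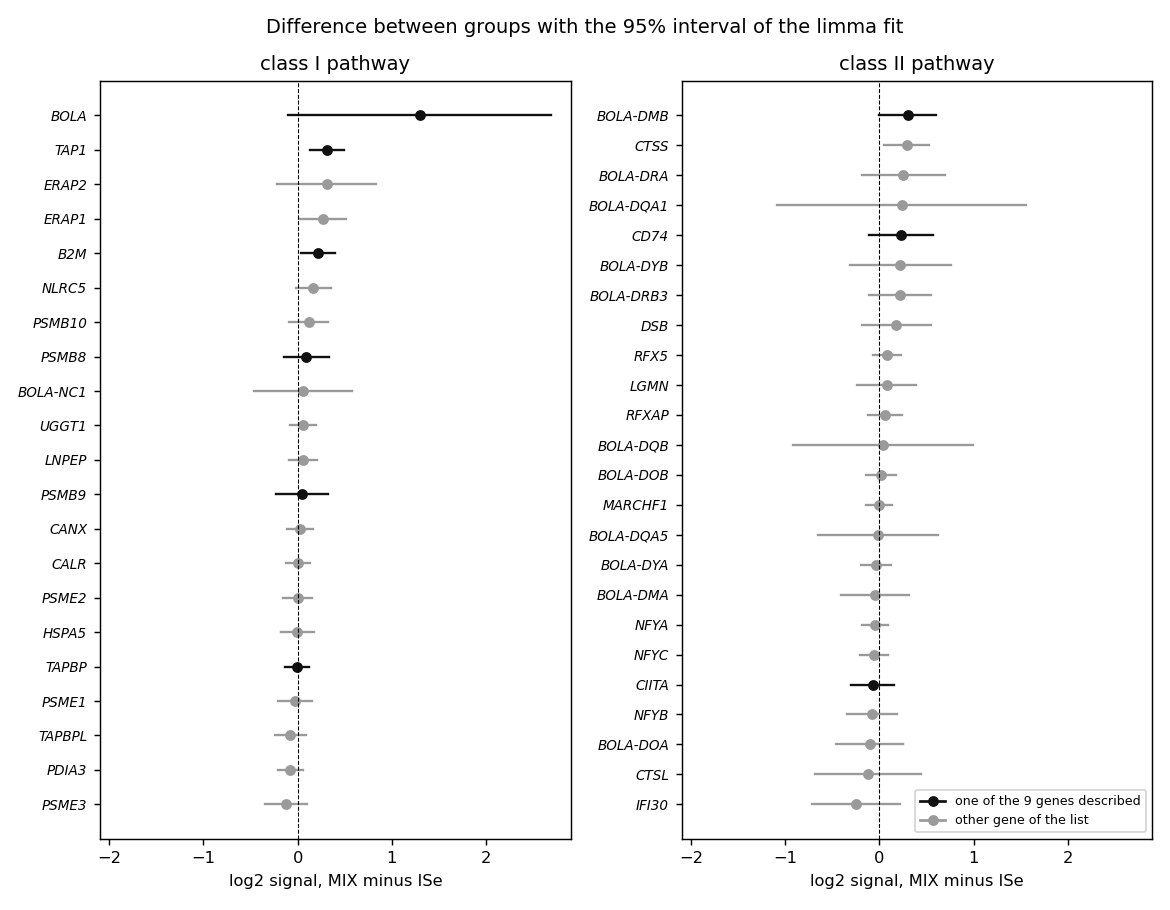
Difference in log2 signal, MIX minus ISe, with the 95% interval of the limma fit for the 21 measured genes of the class I list (left) and the 24 of the class II list (right), with the 9 genes described in black. Most intervals include 0, and the widest belong to BOLA, BOLA-DQA1 and BOLA-DQB.

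Among lists next to this pathway, 13 subunits of the usual proteasome core had 2 higher and 11 lower means in MIX. Their median was -0.02 log2, and 0 reached an unadjusted p under 0.05 in limma. PSMB6, the subunit that PSMB9 replaces, was at -0.09 ± 0.05 log2, followed by PSMA7, PSMA3 and PSMB1 at -0.08 to -0.09. Of 11 genes of interferon gamma signalling, 9 were higher and 2 lower with a median of 0.07, and 0 reached an unadjusted p under 0.05. IRF2 was at 0.13 ± 0.06, SOCS1, an inhibitor of the pathway, at -0.18 ± 0.12 and JAK2, a kinase of the pathway, at 0.09 ± 0.06 log2. IFNG, interferon gamma itself, read 2.84 ± 0.12 in MIX and 2.69 ± 0.13 on the ISe arrays (SD, n = 5 each), far below the array medians.

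Of 8 class I-like genes, 3 were higher and 5 lower in MIX, with a median of -0.08 log2. CD1D, which presents lipids, had 8.43 ± 0.13 on the MIX arrays and 8.65 ± 0.15 on the ISe arrays (SD, n = 5 each), a difference of -0.23 ± 0.09 log2 (limma unadjusted p = 0.0249, adjusted p = 0.941). MR1, which presents vitamin metabolites, was at 0.20 ± 0.09, AZGP1 at -0.08 ± 0.06 and HFE, a regulator of iron uptake, at -0.12 ± 0.11 log2. Of 10 co-stimulatory genes, 7 were higher and 3 lower, with a median of 0.09 log2. CD86, a ligand of CD28 on presenting cells, led with 6.07 ± 0.18 in MIX and 5.72 ± 0.20 in ISe, a difference of 0.34 ± 0.11 log2 (limma unadjusted p = 0.0108, adjusted p = 0.941). CD274 was at 0.36 ± 0.20, TNFSF4 at -0.32 ± 0.22 and CD276 at -0.11 ± 0.10 log2.

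Markers of presenting cells and of other cell types were read on the same arrays. The mean of 16 macrophage markers was 7.16 to 7.36 log2 signal on the MIX arrays and 6.62 to 7.15 on the ISe arrays. Of these markers 15 had a higher mean in MIX, against 50.4% of all probesets. At an unadjusted limma p under 0.05, 14 of them were higher, against 2.67% of all probesets. Dendritic cell markers (10 genes) averaged 5.11 to 5.33 in MIX and 4.99 to 5.29 in ISe with 8 higher, and only 1 of them had a mean of at least 6. B cell markers (7 genes) averaged 5.00 to 5.33 in MIX and 5.02 to 5.64 in ISe with 3 higher, and 0 had a mean of at least 6. Markers of T and NK cells (14 genes) averaged 5.45 to 5.85 in MIX and 5.35 to 5.61 in ISe with 12 higher. Endothelial markers (10 genes) averaged 8.41 to 8.72 in MIX and 8.25 to 8.66 in ISe with 10 higher, and blood cell markers (8 genes) 4.53 to 4.81 in MIX and 4.48 to 4.71 in ISe with 5 higher. At the same unadjusted threshold 2 dendritic cell, 1 B cell, 2 T and NK cell and 1 endothelial marker were higher in MIX. Of the blood cell markers 0 were higher and 1 was lower. The part of these cells in the values of TAP1, B2M, CD74 and BOLA-DMB was not tested.

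Across the 10 arrays, the class II genes CD74 and BOLA-DMB ran together. Their Pearson r was 0.861 (permutation p = 0.00134, adjusted p = 0.0482 over 36 pairs), with 0.834 after removal of the group means (exact permutation within groups, p = 0.0104, adjusted p = 0.257) and 0.762 without MIX 10 and ISe 7, the arrays farthest from the median of CD74. Spearman's rho was 0.648 (permutation p = 0.0489, adjusted p = 0.251). The pair thus passed the threshold by Pearson's r alone, and it no longer did when any 1 of 9 arrays was left out, where r stayed at 0.805 to 0.874 over 9 arrays and the adjusted p was 0.056 to 0.227, while without ISe 5 its r was 0.954 (permutation p = 1.4e-04, adjusted p = 0.00504). No other of the 36 pairs passed, and r is not given for BOLA because its arrays fall into separate sets of 5.

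Of the 28 pairs without BOLA, 23 had an r above 0, with a median of 0.312, and 5 had an unadjusted permutation p under 0.05. B2M, which is in 4 of these 5 pairs, ran with PSMB8 (r = 0.750, permutation p = 0.0131, adjusted p = 0.139, rho = 0.733, permutation p = 0.0207, adjusted p = 0.209), and r was 0.809 after removal of the group means and 0.609 without ISe 6 and ISe 7. With TAP1 its r was 0.679 (permutation p = 0.0307, adjusted p = 0.184, rho = 0.721, permutation p = 0.0232, adjusted p = 0.209), but 0.271 after removal of the group means, and 0.592 without ISe 6 and ISe 7. B2M and BOLA-DMB had r = 0.719 (permutation p = 0.0191, adjusted p = 0.139, rho = 0.552, permutation p = 0.104), and 0.542 after removal of the group means. B2M and CD74 had r = 0.715 (permutation p = 0.0194, adjusted p = 0.139, rho = 0.745, permutation p = 0.0176), and 0.647 after removal of the group means. Without ISe 6 and ISe 7 r was 0.613 for BOLA-DMB and 0.517 for CD74. PSMB8, TAP1 and PSMB9 are consecutive protein-coding genes on chromosome 23 in assembly ARS-UCD2.0, used here for gene order alone. The neighbours PSMB8 and TAP1 had r = 0.315 (permutation p = 0.376, adjusted p = 0.719, rho = 0.285, permutation p = 0.428, adjusted p = 0.837, r = 0.200 without 2 arrays). TAP1 and PSMB9 had r = 0.150 (permutation p = 0.678, rho = 0.261, permutation p = 0.472, adjusted p = 0.935 and 0.837, r = 0.104 without 2 arrays). PSMB8 and PSMB9 had r = 0.030 (permutation p = 0.936, rho = -0.164, permutation p = 0.658, r = -0.002 without 2 arrays).

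TAP1 ran with the mean of the endothelial markers at r = 0.804 (permutation p = 0.00546, adjusted p = 0.102 over 63 relations between genes and marker lists, rho = 0.830, permutation p = 0.00458, adjusted p = 0.135), with 0.793 after removal of the group means (exact permutation within groups, p = 0.00556, adjusted p = 0.35) and 0.862 without MIX 10 and ISe 5. The mean of the macrophage markers and the level of TAP1 had r = 0.797 (permutation p = 0.00556, adjusted p = 0.102, rho = 0.879, permutation p = 0.00167, adjusted p = 0.105). After removal of the group means r was 0.390, and without ISe 2 and ISe 7 it was 0.631. BOLA-DMB had r = 0.793 with the same list (permutation p = 0.00649, adjusted p = 0.102, rho = 0.770, permutation p = 0.0124, adjusted p = 0.135), 0.686 after removal of the group means and 0.691 without ISe 2 and ISe 7. The highest r of the family was that of BOLA-DMB with T and NK cell markers, at 0.873 (permutation p = 0.00103, adjusted p = 0.0649, rho = 0.794, permutation p = 0.00877, adjusted p = 0.135), with 0.802 after removal of the group means and 0.700 without MIX 8 and MIX 10. None of the 63 relations passed after adjustment, and 13 of the 56 without BOLA had an unadjusted p under 0.05.

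**Figure D4:**
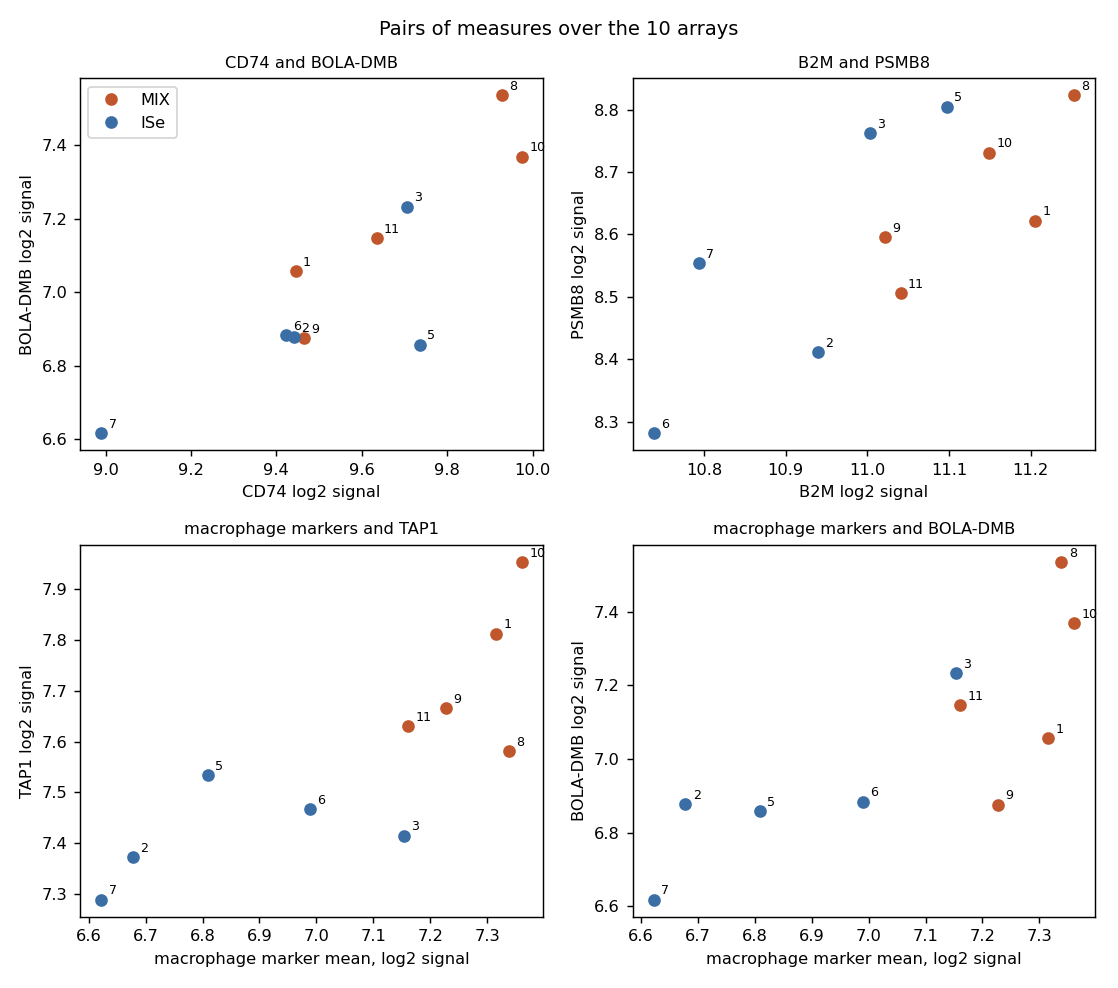
Log2 signal on the 10 arrays (points with replicate numbers) for CD74 and BOLA-DMB, B2M and PSMB8, and the mean of 16 macrophage markers against TAP1 and BOLA-DMB. Axes do not start at 0. MIX 8 and MIX 10 lie at the upper right and ISe 7 at the lower left for CD74 and BOLA-DMB, and all MIX arrays lie above all ISe arrays for TAP1.

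The genes whose pattern over the 10 arrays was most like that of each gene were sought by Pearson r. They were sought among 10006 other genes with a mean of at least 6. Each value is thus among the highest of many and is given with no test. For BOLA they are not given, because its arrays fall into separate sets. For CD74 they were BOLA-DRA at 0.972, CFP, the complement factor properdin, at 0.921 and CTSC, cathepsin C, at 0.918. For BOLA-DMB they were ITGAL, an integrin chain of leukocytes, at 0.917, TMEM205 at 0.917 and GAS7 at 0.911. For TAP1 they were WIPF1, an actin regulator, at 0.961, NEDD9, an adhesion scaffold, at 0.913 and MGC133636 at 0.896. For B2M they were RPL26L1 at 0.896, FLCN at 0.896 and ZUP1 at 0.891. The lists of PSMB8 (SHISA5, OSTF1 and C16H1orf174, 0.843 to 0.865), PSMB9 (MED27, DENND6A and ATL2, 0.927 to 0.942), TAPBP (SLC35B2, ARHGAP27 and NR4A2, 0.880 to 0.895) and CIITA (ZWINT, RPL32 and MEOX2, 0.849 to 0.888) shared no gene with each other. BOLA-DMB ranked 17th by r with CD74 among all 10014 genes compared, and PSMB8 84th with B2M.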

How the data were processed

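The authors deposited log2 signals per probeset for 10 whole-transcript Affymetrix arrays; that the scale is log2 was read from the values (0.54 to 14.17). Per the submitters' processing notes GCOS 1.2 and Partek were used, with no role stated; how background was corrected, probes summarised and arrays normalised is not stated in what was used here, so compression of bright or dim signals cannot be judged. RNA was extracted with TRIzol per the labels' protocols. Precision is limited by the number of arrays.

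The sample titles gave each array's group and replicate number. Of 26773 probesets, the annotation gives 18457 a single symbol and 688 more than 1, and these 19145 were tested with limma 3.58.1 in R 4.3.3 (lmFit, eBayes, two-sided, Benjamini-Hochberg adjustment, threshold 0.05), and the fit was tested on simulated data. Correlations used two-sided permutation tests with 100000 resamples, or all 14400 permutations within groups, in Python 3.11.15 with numpy 2.4.6. Of 45 planned gene pairs, 36 could be computed, since TAP2 had no probeset of its own.

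Genes, lists and probeset rule were chosen with earlier results of these data known. Named in each of the 6 pathway lists are the 4 genes with the smallest p. The 3 genes most alike are named for each gene except BOLA. Genes named beyond these (NLRC5, ERAP2, PSMB10, CALR, CANX, PDIA3, HSPA5, PSME1, PSME2, the RFX and NFY factors, BOLA-DMA, BOLA-DRB2, IFI30, RPL15 and the DQ genes) were picked with their values in view. The alternatives tried were quantile normalisation, median centring, filters on dim probesets (25% and 50%), all probesets, other moderation, array quality weights, the mean of a gene's probesets, and leaving out arrays.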

Additional observations from a re-analysis of the deposited data

Results flagged for a closer look

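ISe 5 stood apart from the other ISe samples for BOLA, at 9.479 log2 signal against 7.09 in the nearest of them, a gap of 87.7% of the group's range. Of the 18 groups of 5 values examined (9 genes in MIX and ISe), this was the only one with such a sample, and chance alone sets apart a sample in about 1 in 20 groups.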

How the results depend on the processing

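The count of probesets past the adjusted threshold was 0 under 19 of 20 alternatives and 1 without MIX 8 (0 to 1 with single arrays left out), where the probeset was RPL15 (1.63 log2, limma adjusted p = 0.0241). Between 6 and 8 of the 9 genes had a higher mean in MIX when single arrays were left out, and 8 after quantile normalisation. The differences of B2M, BOLA, TAP1, PSMB8, CD74, CIITA and BOLA-DMB kept their sign under every alternative in which they were tested (CIITA falls to the filter on the dimmer 50% of probesets), and none passed the adjusted threshold. The dimmer BOLA probeset, which carries another gene identifier, gave 0.41 log2 against 1.29 for the brighter, a comparison added after the data were seen. TAPBP turned to 0.00450 after quantile normalisation and ran from -0.0428 to 0.0151 with single arrays left out, and PSMB9 ran from -0.00823 to 0.15; the cause was not tested. The number of correlated pairs, 1 in the main setting, was 0 after quantile normalisation, after median centring, after removal of the group means, with the mean of a gene's probesets and without MIX 1 and MIX 8 together, and ran from 0 to 2 with single arrays left out. The 2 pairs without ISe 5 were CD74 with BOLA-DMB and BOLA with TAP1. Without ISe 5 the high set of BOLA held MIX arrays alone. The r of the BOLA pair thus rests on the split of the arrays and is not given. No paired analysis was possible because the groups share no replicate number. Each group has 5 arrays. Differences of low-signal genes such as IFNG and the dimmer BOLA-DQA1 probeset are uncertain because they read far below the array medians. Low signal did not set the SE alone, which was 0.08 log2 for IFNG, 0.76 for BOLA-DQB1 and 0.63 for the brighter BOLA probeset.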
